A study of Mus musculus with 103 samples.

Results

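Meis1, Meis2, Meis3, Pbx2 and Pbx3 were followed through an atlas of the early mouse face. They are the 5 genes of the Meis and Pbx families taken here from the array platform's annotation by gene symbol, each read by 1 probe set that carries that symbol alone, out of 19938 genes tested. The rule reads gene symbols and no measured value. The probe sets are 10384504 for Meis1, 10486041 for Meis2, 10550274 for Meis3, 10444394 for Pbx2 and 10481857 for Pbx3.

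Meis and Pbx proteins are homeodomain transcription factors of the TALE class, named for extra residues in a loop of the homeodomain. Meis and Pbx proteins bind each other, and both bind DNA together with Hox proteins, whose choice of sites they sharpen. In the head they also act where Hox genes are silent: Pbx genes are needed for fusion of the upper lip and for Wnt signalling in the midface, and Meis2 is needed in cranial neural crest for the jaw, palate and ear skeleton.

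All embryos were wild type, of the outbred CD1 stock, with no treatment named in the labels, and the regions were cut from frozen sections by laser capture and read on 1 array each. The labels place all but 1 of 103 samples in 22 groups of 4 to 7 libraries. At E8.5 these are neural epithelium of the floor plate, of the non-floor plate and of the caudal region, and mesenchyme. At E9.5 they are neuroepithelium, cranial mesenchyme, mandibular arch, maxillary arch, epidermal ectoderm and otic vesicle. The E10.5 regions are neuroepithelium at the midline, under the lateral nasal prominence, under the medial nasal prominence and away from the facial eminences (control), the lateral nasal eminence, the medial nasal prominence, the mandibular arch, the maxillary arch, the epidermal ectoderm of each arch, the olfactory pit and Rathke's pouch. The 2 nasal groups without the neuroepithelium are called the nasal prominences below. The labels do not say which samples came from the same embryo, so p-values measure the spread between samples and may be too small. Values are log2 of the ratio to the authors' baseline, so 1 unit is a 2-fold difference between libraries for the same gene, and levels of different genes cannot be compared. In a captured region, fewer cells that express a gene and less RNA per cell cannot be told apart.

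The labels were set against 3 lists of defining markers, for neural epithelium, mesenchyme and surface ectoderm, as the mean log2 ratio of each list in each library. In 86 libraries the list that fits the label was the highest of the 3, and in 16 it was not. All 4 libraries labelled E10.5 mandibular arch epidermal ectoderm had mesenchyme markers at 1.04 to 1.54 and surface ectoderm markers at -0.42 to 0.04. Of the 5 libraries labelled E10.5 maxillary arch, replicates 1 to 3 were highest for surface ectoderm, at 1.56 to 2.88, replicate 4 for neural epithelium, at 0.93, and only replicate 5 for mesenchyme, at 0.96. Whether the labels of these groups were exchanged is not known from the sources used here, and the groups are kept as labelled. The others are 3 of 4 E8.5 floor plate libraries, 3 of 5 E8.5 non-floor plate libraries and otic vesicle replicates 3 and 5. The 2 arrays of E10.5 mandibular arch epidermal ectoderm numbered 1 and 3 had a correlation of 0.947 over all genes, the highest of any pair.

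The sequence before the start site is shown for the pair of genes whose values moved most alike, Meis1 and Meis2. RefSeq's table for GRCm38.p6, which is not the build of the deposited values (mm9), held windows for 4 of the 5 genes, and the one for Pbx3 is not shown. The 250 bases upstream of Meis1 are at chr11:19018970-19019219 and those of Meis2 at chr2:116064620-116064869, both on the minus strand and printed 5′ to 3′ along the gene. Capitals mark the letters TGAT, the core of a Pbx half-site.
Meis1: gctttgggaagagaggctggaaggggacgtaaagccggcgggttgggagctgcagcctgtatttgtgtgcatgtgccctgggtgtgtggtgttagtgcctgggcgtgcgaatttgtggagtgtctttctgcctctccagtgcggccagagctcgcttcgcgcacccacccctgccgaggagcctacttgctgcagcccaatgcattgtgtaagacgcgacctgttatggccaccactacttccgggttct
Meis2: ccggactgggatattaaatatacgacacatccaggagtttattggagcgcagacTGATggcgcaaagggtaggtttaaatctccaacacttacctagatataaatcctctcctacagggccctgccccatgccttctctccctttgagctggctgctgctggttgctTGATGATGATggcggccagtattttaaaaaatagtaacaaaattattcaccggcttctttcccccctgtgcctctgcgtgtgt
The Meis2 window held 4 copies of TGAT on the gene's strand, the first at bases -196 to -193 relative to the start site and the other 3 in a run from -83 to -74. Each copy of the run shares its outer T with the next. The Meis1, Meis3 and Pbx2 windows held none on either strand, while 72.9% of 32851 windows of 300 bases in the table held at least 1. Searched on both strands, TGACAG (the Meis core, in 19.2% of windows), TGATTGAC (0.77%), TGATNNAT (8.85%) and AGGTCA (16.3%) were in none of the 4 windows. TGATTGAC and TGATNNAT contain TGAT. The 4 upstream stretches also differed in base composition: GC content was 47.6% for Meis2, 59.6% for Meis1, 63.6% for Meis3 and 77.6% for Pbx2, beside a median of 52.4% for the same 250 bases over the table, and CpG counts were 7, 13, 12 and 27. A match is a description of letters in this window and shows no binding.

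Of the 5 genes, Meis2 and Pbx3 varied most with region. Label groups accounted for 57.6% of the variance of Meis2 over the libraries, and 5.61% of all genes reached that share. The share was 52.2% for Pbx3, which 11.6% of genes reached, 39.6% for Pbx2, 37.3% for Meis3 and 30.8% for Meis1, beside 35.6% for the median gene. Within groups the libraries spread widely, with a pooled SD of 1.10 for Meis2 and 0.79 to 0.81 for the other 4, beside 0.31 for the median gene.

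**Figure D1:**
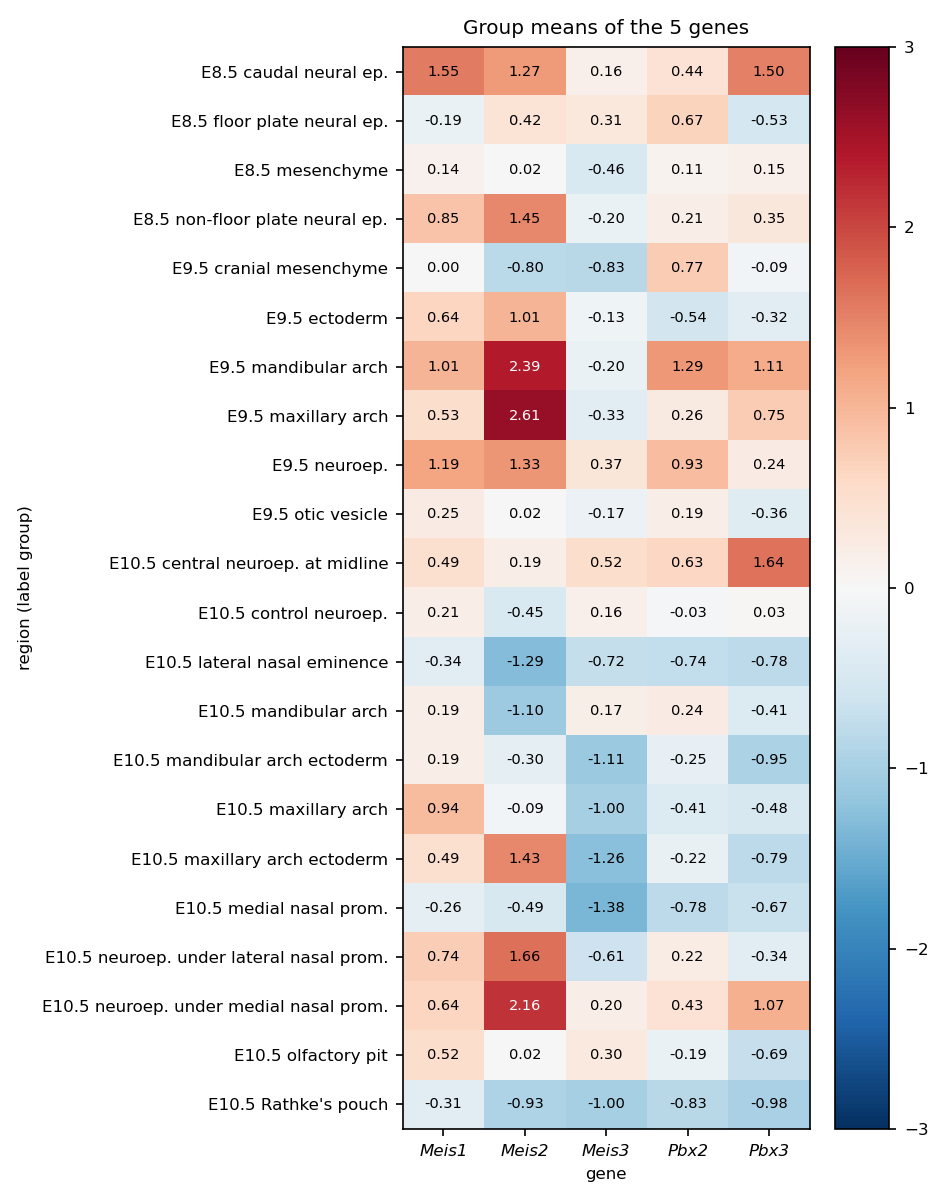
Colours and numbers give the mean log2 ratio of each gene (columns) in each of the 22 regions (rows). Meis2 has the highest means, 2.61 and 2.39 in the E9.5 maxillary and mandibular arches, and all 5 genes are below 0 in both nasal prominences and in Rathke's pouch at E10.5.

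In the order of the 22 group means, neighbouring groups overlapped for every gene. Of 21 steps between neighbours, the gap exceeded the mean SD of the 2 groups in 0 for Meis1, Meis2, Meis3 and Pbx3 and in 1 for Pbx2, from the E9.5 mandibular arch (1.29) to the E9.5 neuroepithelium (0.93). The ends of the orders were far apart: 2.61 to -1.29 for Meis2, 1.64 to -0.98 for Pbx3, 1.55 to -0.34 for Meis1, 1.29 to -0.83 for Pbx2 and 0.52 to -1.38 for Meis3. Tests of a gene over all regions of a stage (limma's moderated F test, adjusted over all genes) called 5 of 15 cases. These were Meis2 (adjusted p = 0.00016) and Pbx2 (0.02) at E9.5, where 17.7% of genes were called, and Meis2 (0.00071), Meis3 (0.0081) and Pbx3 (0.00062) at E10.5, where 34.1% were. At E8.5 none of the 5 was called, beside 4.25% of genes.

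**Figure D2:**
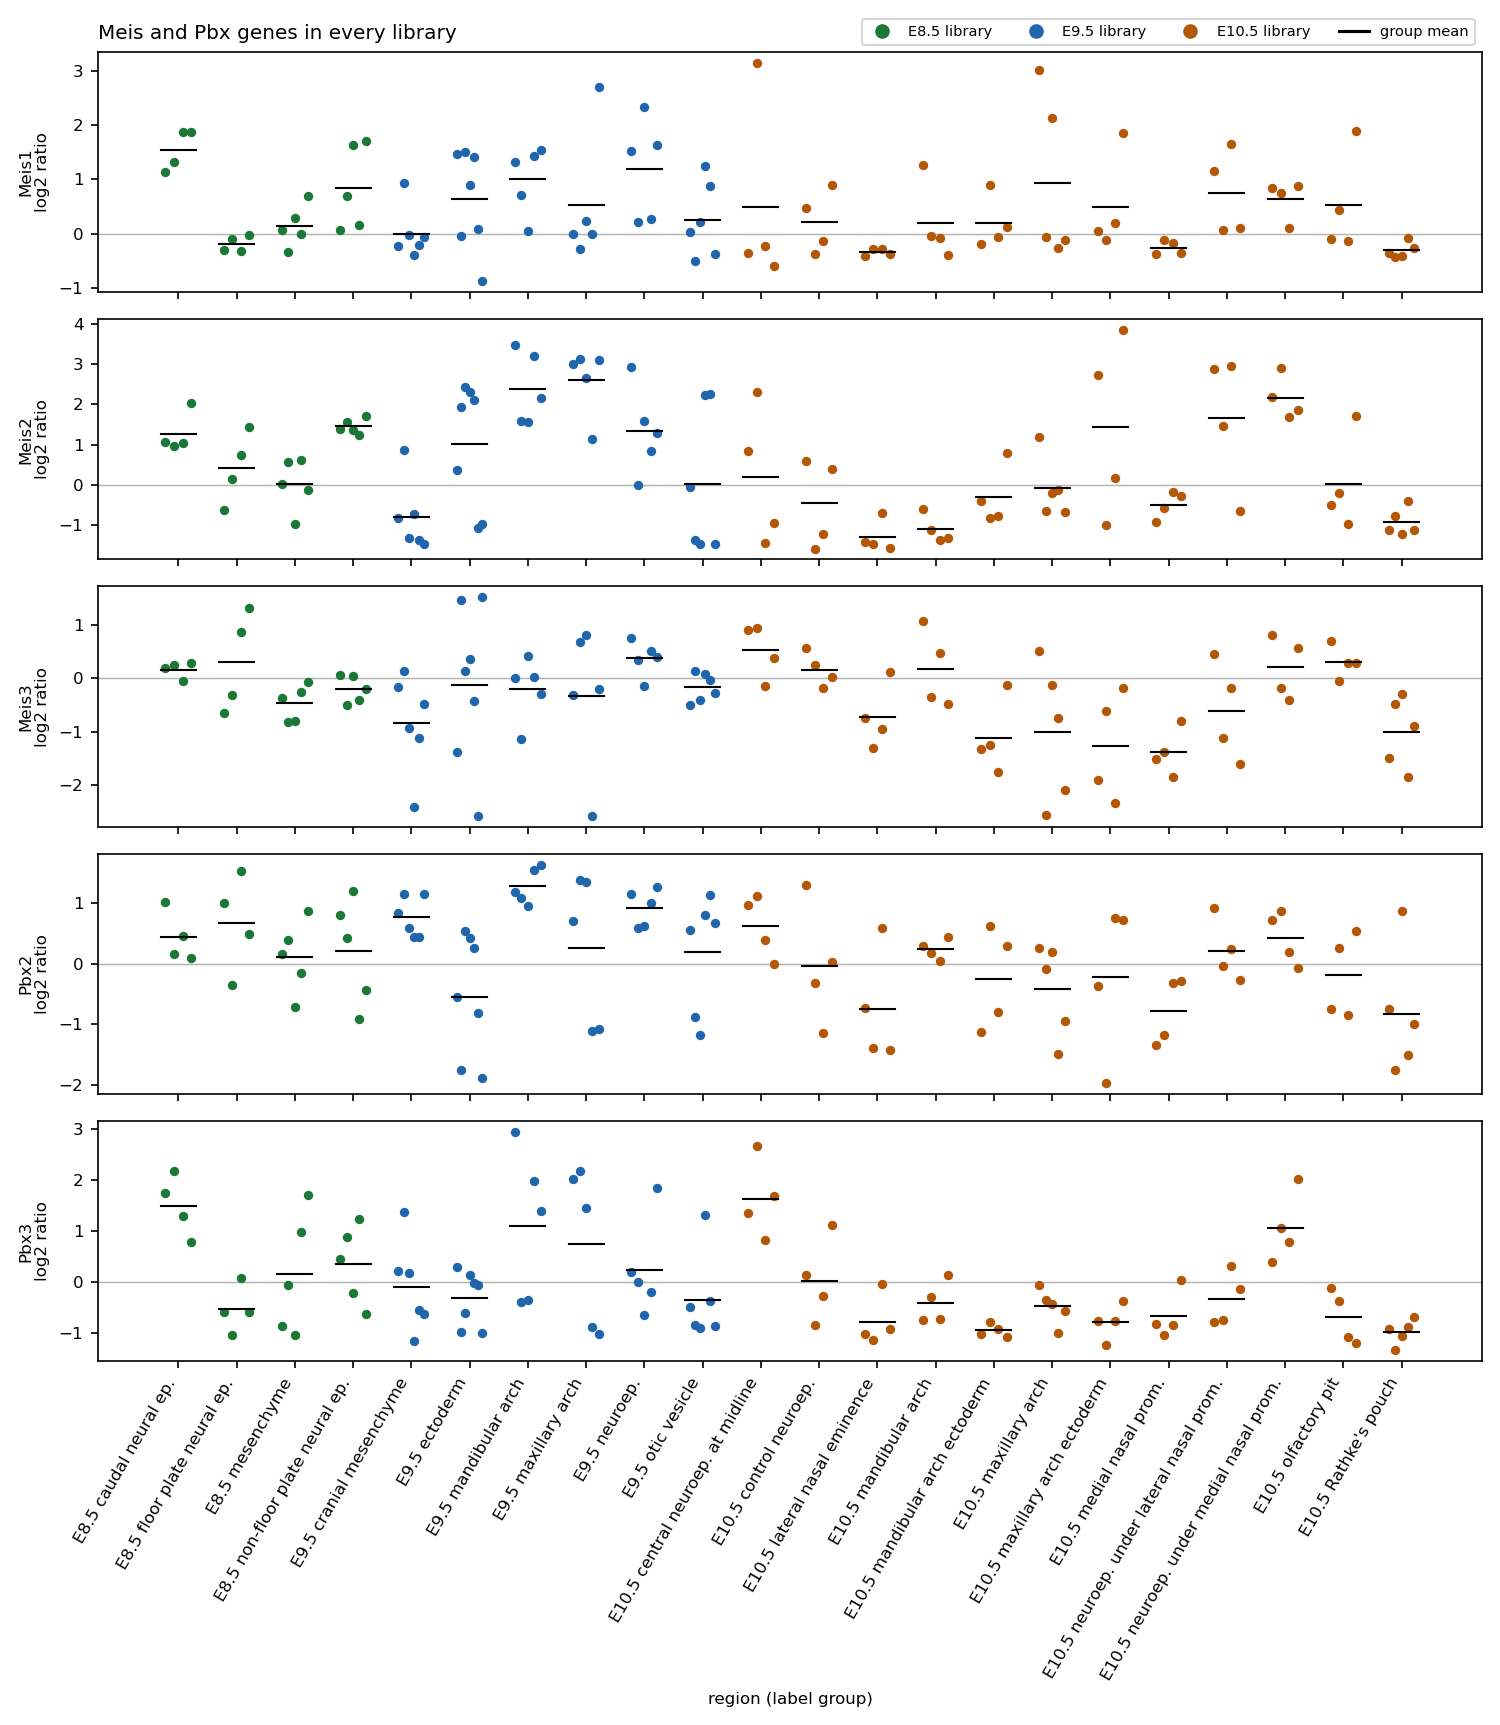
Each point is a library's log2 ratio and each black line a group mean, with 1 panel per gene and the regions along the horizontal axis, coloured by stage. Meis2 in the E9.5 otic vesicle splits into replicates 4 and 5 at 2.24 and 2.26 and 4 others from -1.48 to -0.06, and Meis1 has single high libraries such as E10.5 midline replicate 2 at 3.15.

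Of 145 pairs of a gene and a comparison between groups, 13 were called at an adjusted p under 0.05, which is 8.97%, beside 3.99% of pairs over all genes. By family of comparisons, 4 of 30 pairs were called between E9.5 regions, 6 of 65 between E10.5 regions and 3 of 35 between stages, beside 6.73%, 3.72% and 3.27% of pairs over all genes. Libraries of the 2 sides did not overlap in 9 of the 145 pairs, beside 3.04% over all genes. Meis2 was called in 5 of 29 comparisons, Pbx2 in 4, Pbx3 in 3, Meis3 in 1 and Meis1 in 0 by limma. Meis1 had an unadjusted p under 0.05 in 3 comparisons and was called in 5 with array weights and in 1 where the compared groups were fitted alone. In 12 comparisons that are not described singly below, 0.115% to 2.4% of genes were called and 0 of the 5 members by the fit of all groups. Alternatives called 3 pairs there. With array weights, Meis1 differed by 1.76 between the E10.5 maxillary arch and the nasal prominences (adjusted p = 0.025) and by -1.57 between the E10.5 mandibular and maxillary arches (0.047). Meis2 differed by -3.58 between mandibular and maxillary arch ectoderm without the 11 arrays of widest spread (0.018) and by -2.28 (0.042) in a fit that also held a measure of array spread, the 5th percentile of its log2 ratios. The arrays left out include maxillary arch ectoderm replicates 2 and 3, the lowest of that group for Meis2. Both Meis1 pairs use the libraries labelled E10.5 maxillary arch, 4 of 5 of which had markers against their label. The Meis2 pair uses those labelled mandibular arch epidermal ectoderm, all 4 of which had mesenchyme markers, not surface ectoderm markers, highest. The calls fell into 7 comparisons. In 3 of those, 20.3% to 37% of all genes tested were called as well, and there the members' counts cannot be set apart from the background.

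**Figure D3:**
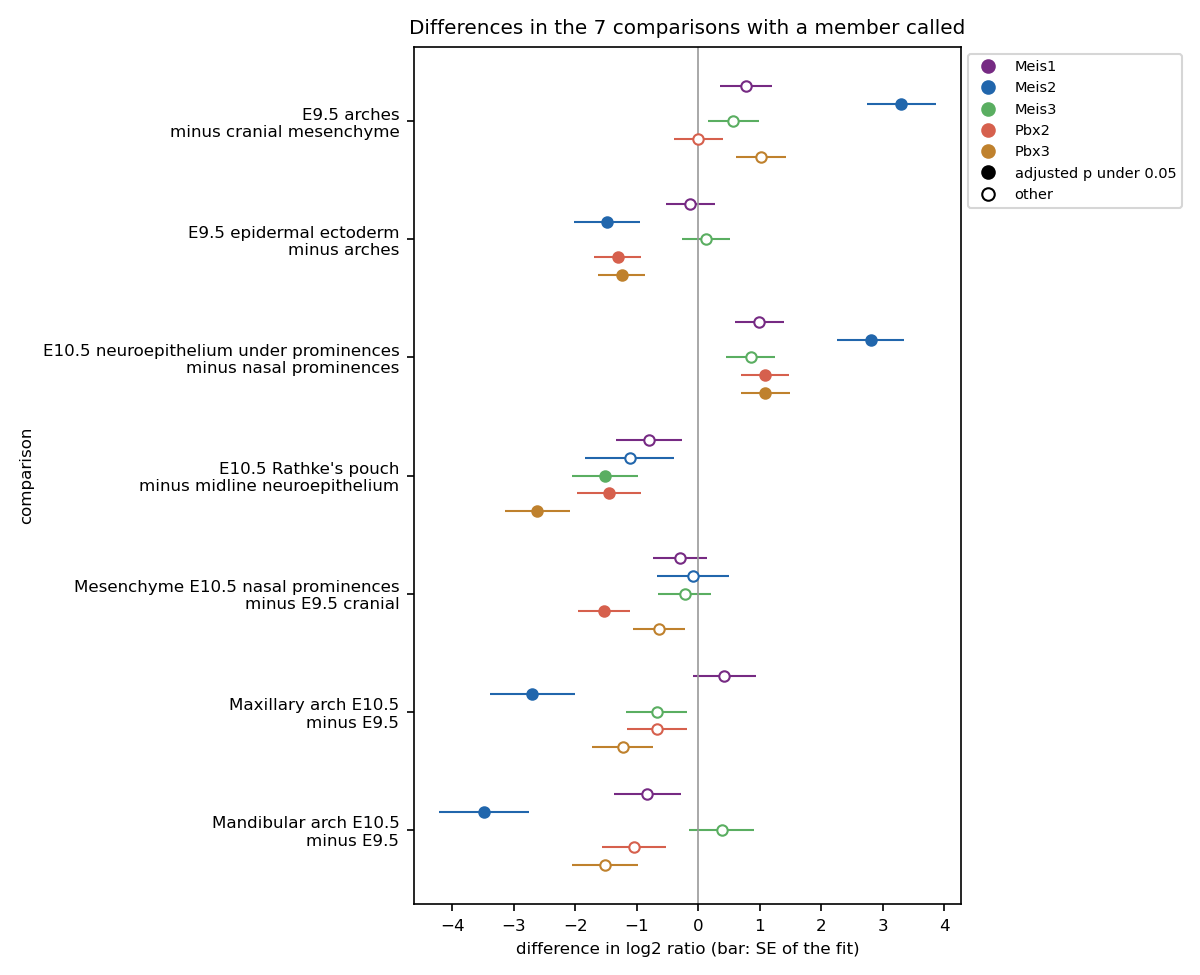
Points give the difference in log2 ratio for each of the 5 genes in the 7 comparisons in which any was called, with the SE of the fit as bars, and filled points passed an adjusted p of 0.05. The 5 largest differences are Meis2 in both arch stage comparisons, in arches against cranial mesenchyme and in neuroepithelium against nasal prominences, and Pbx3 in Rathke's pouch against midline neuroepithelium.

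Meis2 was high in the E9.5 branchial arches and low in the cranial mesenchyme of the same stage. In the mandibular arch, whose libraries are numbered 2 to 6, its log2 ratios were 3.46, 1.59, 1.55, 3.21 and 2.16. In the maxillary arch they were 3.00, 3.13, 2.65, 1.14 and 3.11. All 10 arch libraries lay above all 6 of cranial mesenchyme, whose lowest, median and highest values were -1.46, -1.06 and 0.86. The arches averaged 2.50 ± 0.83 (SD, n = 10) and the cranial mesenchyme -0.80 ± 0.87 (SD, n = 6), a difference of 3.30 ± 0.56 (SE), or 9.87-fold (adjusted p = 1e-04). Only 0.933% of genes were called in this comparison, 0.742% higher in the arches, and 0.11% had no overlap between its libraries. Meis2 ranked 18 of 19938 by p, and no alternative ended the call.

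The mesenchyme list did not separate these groups: its library values were 1.81 to 2.34 in the mandibular arch, 1.28 to 2.41 in the maxillary arch and 1.38 to 2.57 in the cranial mesenchyme, with 12 of 12 markers above 0 in each. Endothelial markers (8 of 8, 7 of 8 and 8 of 8 above 0) averaged 1.68, 1.33 and 1.08 in the same order, and erythroid markers (6 of 6 in each) averaged 0.70, 0.72 and 1.20. Surface ectoderm markers averaged -0.08 (5 of 11 above 0), 0.10 (4 of 11) and -0.37 (1 of 11), and neural epithelium markers -0.67 (2 of 8), -0.28 (2 of 8) and 0.06 (4 of 8). The part of these lists in the result was not tested. Cranial mesenchyme replicate 2, highest for Meis2 at 0.86, was also highest for mesenchyme markers at 2.57. Over all genes its array correlated with E9.5 maxillary arch replicates 1 and 2 at 0.799 and 0.798, among the highest of any pairs. The source of this likeness was not tested.

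The fit of all groups called none of the other 4 genes between arches and cranial mesenchyme. Pbx3 differed by 1.02 ± 0.41 (SE, adjusted p = 0.24) and passed with array weights (1.42, 0.0062), with 3 high and 2 low libraries in each arch: 2.95, -0.40, -0.36, 1.98 and 1.40 in the mandibular and 2.02, 2.19, 1.46, -0.89 and -1.03 in the maxillary arch. Pbx2 differed by 0.00 ± 0.40, Meis1 by 0.77 ± 0.42 and Meis3 by 0.57 ± 0.41. Between the 2 arches at E9.5 none of the 5 was called, beside 0.0702% of genes. The largest of the 5 differences was that of Pbx2, 1.03 ± 0.49 higher in the mandibular arch (unadjusted p = 0.04). Its maxillary libraries 4 and 5, at -1.11 and -1.07, were the same that were low for Pbx3. These 2 arrays also had the lowest 5th percentiles of the group, at -1.22 and -0.94, and the part of array spread was not tested.

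Against E9.5 neuroepithelium, cranial mesenchyme was also lower for the Meis genes without a call: the neuroepithelium was 2.13 ± 0.66 higher for Meis2 (SE, adjusted p = 0.11), 1.20 ± 0.48 for Meis3 (0.39) and 1.19 ± 0.49 for Meis1 (0.43), and 1.15% of genes were called. The Meis2 difference passed with quantile normalization (2.57, adjusted p = 0.0066) and with array weights (2.33, 0.0014), and Meis1 with array weights (1.42, 0.024). Neither Pbx gene differed by more than 0.33.

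Meis2 was lower at E10.5 than at E9.5 in the libraries labelled mandibular arch and in those labelled maxillary arch. In the E10.5 mandibular arch the log2 ratios were -0.61, -1.11, -1.36 and -1.31, all below the 5 libraries of E9.5. The difference was -3.49 ± 0.73 (SE), or 11.2-fold (adjusted p = 0.0022), where 6.98% of genes were called, 5.74% lower, and 12.3% had no overlap. It was called without each library in turn, at -3.70 to -3.22. The call was lost in a fit of these groups alone with the replicate number as a block (-3.46, adjusted p = 0.46).

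In the libraries labelled E10.5 maxillary arch, Meis2 was at 1.19, -0.65, -0.20, -0.14 and -0.67. Replicate 1 lay above the lowest E9.5 maxillary library, 1.14, and the other 4 below it. The difference was -2.70 ± 0.69 (SE), or 6.49-fold (adjusted p = 0.0096), beside 8.56% of genes called, 6.88% lower and 1.68% higher. Without the 4 of these libraries whose markers go against the label, replicate 5 alone differed by -3.28, and the call was lost (adjusted p = 0.11, with the lone library assumed to vary like the other groups). The fit of the 2 compared groups alone also missed the threshold (adjusted p = 0.085).

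Other cell types moved with the stage in these arches. Endothelial markers averaged 0.69 (7 of 8 above 0) in the mandibular and -0.14 (4 of 8) in the maxillary arch at E10.5, below the 1.68 and 1.33 of E9.5. Macrophage markers averaged 0.90 (7 of 8, libraries from 0.24 to 1.99) in the E10.5 mandibular arch against 0.08 (2 of 8) at E9.5, and 0.14 (7 of 8) against 0.08 (5 of 8) in the maxillary. Surface ectoderm markers averaged 0.32 (6 of 11) in the E10.5 mandibular arch, where libraries ranged from -0.20 to 0.98, against -0.08 (5 of 11) at E9.5, and 1.36 (11 of 11) against 0.10 (4 of 11) in the maxillary arch. Neuron markers averaged 0.14 in the E10.5 mandibular arch (7 of 8 above 0, libraries from -0.71 to 1.21), against -0.53 (1 of 8) at E9.5. In the maxillary arch they did not rise, at -0.53 (3 of 8) at E10.5 against -0.37 (3 of 8) at E9.5. Mesenchyme markers ranged from 0.72 to 2.07 in the E10.5 mandibular arch and from 0.40 to 1.70 in the maxillary. The part of these cells in the Meis2 result was not tested.

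Pbx3 was also lower in the E10.5 arches without a call, with differences of -1.52 ± 0.53 in the mandibular (SE, adjusted p = 0.062) and -1.23 ± 0.50 in the maxillary arch (0.099). The mandibular difference passed without E9.5 mandibular replicate 3 (adjusted p = 0.021), replicate 4 (0.021) or E10.5 mandibular replicate 4 (0.046). The maxillary one passed without E9.5 maxillary replicate 4 (0.022) or 5 (0.021), and with array weights (-1.83, 0.0094). Pbx2 was lower in the mandibular arch with no overlap (difference -1.04 ± 0.52, adjusted p = 0.20) and passed with array weights (-1.09, 0.049): its 4 libraries at E10.5 were at 0.05 to 0.45 and its 5 at E9.5 at 0.96 to 1.64. Meis1 differed by -0.83 ± 0.54 and 0.42 ± 0.51 in the mandibular and maxillary arch, and Meis3 by 0.38 ± 0.53 and -0.68 ± 0.50, none of them called in the fit of all groups. With array weights the mandibular Meis1 difference passed (-1.23, adjusted p = 0.041).

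**Figure D4:**
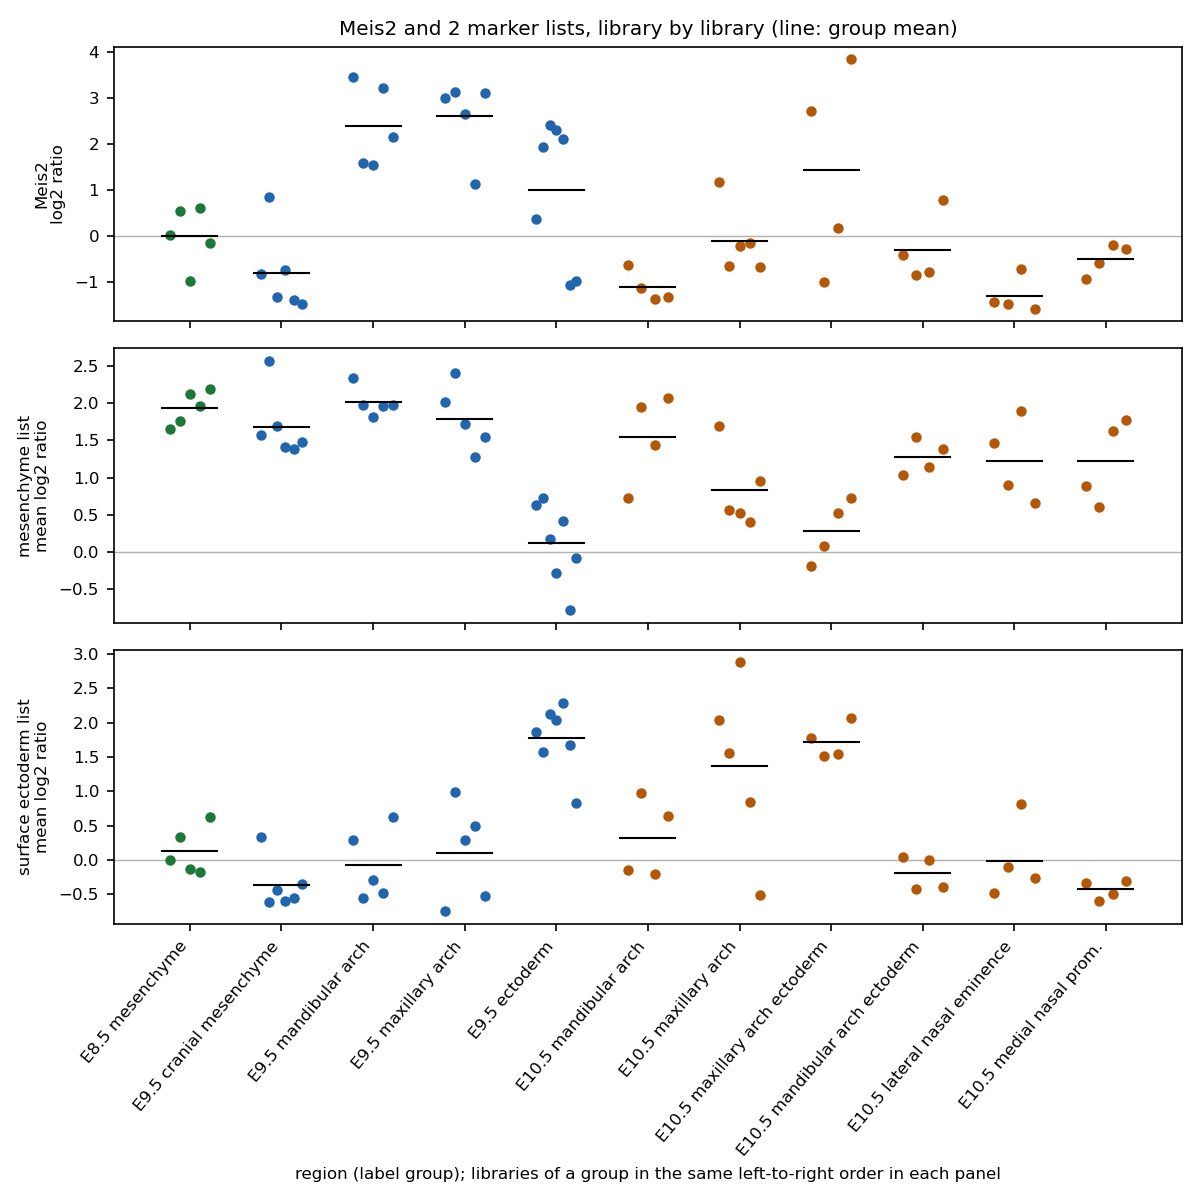
The upper panel gives the Meis2 log2 ratio of each library and the lower panels the mean log2 ratio of the mesenchyme and surface ectoderm lists in the same libraries, for 11 regions coloured by stage as E8.5 green, E9.5 blue and E10.5 brown. Meis2 is above 1 in all 10 libraries of the E9.5 arches, and the libraries labelled E10.5 maxillary arch reach 2.88 for surface ectoderm markers.

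At E10.5 Meis2 was high in the neuroepithelium that lies under the nasal prominences and low in the prominences themselves. Under the lateral prominence its log2 ratios were 2.88, 1.45, 2.94 and -0.64, and under the medial 2.19, 2.91, 1.68 and 1.87. In the lateral nasal eminence they were -1.43, -1.46, -0.70 and -1.57, and in the medial nasal prominence -0.92, -0.58, -0.18 and -0.27. Of the 8 neuroepithelial libraries, 7 lay above all 8 of the prominences, and replicate 4 under the lateral prominence lay among them. The means were 1.91 ± 1.19 (SD, n = 8) and -0.89 ± 0.55 (SD, n = 8), a difference of 2.80 ± 0.54 (SE), or 6.96-fold (adjusted p = 0.00015). In this comparison 20.9% of genes were called, 14.9% of all genes being higher in the neuroepithelium, and Meis2 ranked 247 of 19938 by p. The call held in all 16 fits that left out a library (2.59 to 3.18) and was 1.90 with an adjusted p of 0.016 once the 5th percentile of each array entered the fit. Neuron markers averaged 1.63 (7 of 8 above 0) and 2.39 (8 of 8) in the neuroepithelium under the lateral and medial prominence and -0.29 (4 of 8) and -0.25 (3 of 8) in the lateral and medial prominences. Macrophage markers averaged 0.24 (6 of 8) and 0.10 (4 of 8) against 0.76 (6 of 8) and 0.47 (6 of 8), and the part of both lists in these results was not tested.

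Pbx2 and Pbx3 were higher in the same neuroepithelium, by 1.08 ± 0.39 (SE, adjusted p = 0.037) and 1.09 ± 0.40 (0.04). Both calls were weak: 9 of the 16 libraries ended the first and 10 the second when left out, and with quantile normalization the differences were 0.64 (adjusted p = 0.16) and 0.57 (0.30). The prominences had the wider arrays, with the 5th percentile of an array's log2 ratios at -1.34 on average in the lateral and -1.69 in the medial prominence, beside -0.80 and -0.43 in the neuroepithelium under them. With that percentile as a covariate Pbx2 differed by 0.16 (adjusted p = 0.84) and Pbx3 by 0.56 (0.49).

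Meis1 took the same direction without overlap. Its 8 neuroepithelial libraries were at 1.15, 0.06, 1.66 and 0.10 under the lateral and 0.85, 0.75, 0.10 and 0.87 under the medial prominence, and the 8 of the prominences at -0.42 to -0.12. The difference of 0.99 ± 0.40 missed the threshold (SE, adjusted p = 0.067), and 1.59% of genes had no overlap here. It passed with array weights (1.13, adjusted p = 0.02), in the fit of these groups alone (0.99, 0.01) and without lateral neuroepithelium replicate 2 or 4 (1.10, 0.049 in each). Meis3 differed by 0.85 ± 0.40 (adjusted p = 0.12) and passed with array weights (1.00, 0.025).

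Within the neuroepithelium of E10.5, Meis2 was 2.36 ± 0.67 higher under the prominences than in the control neuroepithelium (SE, adjusted p = 0.15, unadjusted p = 0.00066, rank 90), where its libraries were at 0.59, -1.58, -1.22 and 0.39. Only 0.296% of genes were called. The difference passed without lateral replicate 4 (2.75, adjusted p = 0.033), with array weights (2.53, 0.013) and with the array percentile as a covariate (2.47, 0.027). At the midline Meis2 was mixed, at 0.84, 2.30, -1.44 and -0.94.

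Pbx3 was high in the midline neuroepithelium and in that under the medial prominence. At the midline its log2 ratios were 1.35, 2.68, 0.82 and 1.70, and under the medial prominence 0.40, 1.07, 0.78 and 2.03. Under the lateral prominence they were -0.79, -0.75, 0.31 and -0.13, all below the medial ones, and in the control neuroepithelium 0.13, -0.84, -0.28 and 1.13. The medial group exceeded the lateral by 1.41 ± 0.56 (SE, adjusted p = 0.49), where 0.176% of genes were called and 4.87% had no overlap, and the midline exceeded the control by 1.60 ± 0.56 (adjusted p = 0.38, beside 0.471% called). Neither was called. Neuron markers averaged 2.20 (libraries from 1.95 to 2.31) at the midline, 2.39 (2.03 to 2.81) in the medial group, 1.63 (0.78 to 2.13) in the lateral and 1.07 (0.60 to 1.48) in the control neuroepithelium, and their part was not tested. The 4 samples of the medial group carry titles that name the lateral prominence, so the medial and lateral contrast rests on their tissue label.

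Rathke's pouch, the oral ectoderm that forms the anterior pituitary, was lower than the midline neuroepithelium for Pbx3. The 5 libraries of the pouch were at -0.93, -1.34, -1.06, -0.88 and -0.69, all below the lowest of the midline, 0.82. The difference was -2.62 ± 0.53 (SE), or 6.13-fold (adjusted p = 0.00052), with Pbx3 at rank 178 of 19938. It held without each library in turn, at -2.89 to -2.27. The call was lost in a fit of these groups alone with the replicate number as a block (-2.69, adjusted p = 0.12). In this comparison 20.3% of genes were called, 13.6% lower in the pouch, and 12.1% had no overlap. Neuron markers differed as well, at 1.95 to 2.31 in the midline libraries (8 of 8 above 0) and -0.91 to -0.06 in the pouch (4 of 8), and their part in the result was not tested.

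Meis3 and Pbx2 were lower in Rathke's pouch too, with differences of -1.52 ± 0.53 (SE, adjusted p = 0.034) and -1.45 ± 0.52 (0.039), with Meis3 libraries at -1.84 to -0.29 in the pouch and -0.15 to 0.94 at the midline. Each call was lost in 6 of the 9 fits that left out a library. The arrays of the pouch had the lowest 5th percentile of any region, on average -1.76 beside -0.56 at the midline, and with it in the fit the differences were -1.29 (adjusted p = 0.27) and -0.22 (0.87). Meis1 differed by -0.80 ± 0.54 and Meis2 by -1.12 ± 0.73, neither called.

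In the E9.5 epidermal ectoderm, Meis2, Pbx2 and Pbx3 were lower than in the arches, with differences of -1.49 ± 0.54 (SE, adjusted p = 0.025), -1.31 ± 0.38 (0.0068) and -1.25 ± 0.39 (0.01). Here 37% of all genes were called, 23.3% lower in the ectoderm, and nothing is read from the count of 3 of 5 beside so high a background. Meis2 split the 7 ectoderm libraries, with 4 at 1.93 to 2.42 within the range of the arches, replicate 1 at 0.37 and replicates 6 and 7 at -1.06 and -0.97. None of the 3 calls survived quantile normalization (adjusted p = 0.056 for Meis2, 0.23 for Pbx2 and 0.18 for Pbx3), the fit of these groups alone (0.072, 0.053 and 0.11) or the array percentile as a covariate (0.59, 0.53 and 0.31). The mean percentile was -1.39 in the ectoderm and -0.45 and -0.69 in the mandibular and maxillary arches. The Meis2 call was also lost without mandibular replicate 2 (adjusted p = 0.053).

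At E10.5 the direction between ectoderm and maxillary arch was the other way for Meis2: its maxillary arch ectoderm libraries were at 2.72, -1.0, 0.18 and 3.84, on average 1.53 ± 0.73 above the libraries labelled maxillary arch (SE, adjusted p = 0.63). At E9.5 the epidermal ectoderm was -1.59 relative to the maxillary arch. The change between stages, 3.12 ± 0.97 (SE), was not called (adjusted p = 0.17), passed without maxillary ectoderm replicate 2 (3.93, 0.043), and was 4.62 (0.022) without the 11 arrays of widest spread. Those arrays include maxillary ectoderm replicates 2 and 3, at -1.0 and 0.18, so that only replicates 1 and 4 remained. Of all 15 such differences of comparisons for the 5 genes, 0 were called by limma, beside 0.211% of genes in this one, 0.366% for neural epithelium less mesenchyme between E8.5 and E9.5 and 0.0401% for the lateral less the medial prominence. Surface ectoderm markers at 2.04, 1.56 and 2.88 in maxillary arch replicates 1 to 3 stand beside this result, and only 0.01% of genes were called between these 2 groups.

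Rathke's pouch, also an ectodermal region, had Meis2 at -1.22 to -0.41 in all 5 libraries, -2.36 ± 0.73 relative to the maxillary ectoderm (SE, adjusted p = 0.071, beside 1.63% of genes called). This passed without maxillary ectoderm replicate 2 (-3.17, 0.016), with the array percentile in the fit (-2.30, 0.022) and without the 11 arrays of widest spread (-4.43, 0.0045). Without those arrays the olfactory pit also differed from the maxillary ectoderm for Meis2 (-3.26, 0.049). The arrays left out include maxillary ectoderm replicates 2 and 3, the lowest of that group for Meis2. Both differences then rest on its replicates 1 and 4 alone. The olfactory pit was higher than the maxillary ectoderm for Meis3, at 0.69, -0.06, 0.29 and 0.28 against -1.90, -0.62, -2.34 and -0.18. The libraries did not overlap, as for 5.49% of genes, and the difference of 1.56 ± 0.56 was not called (SE, adjusted p = 0.22, beside 0.687%).

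Between mesenchyme of the 2 later stages, Pbx2 was lower in the E10.5 nasal prominences than in E9.5 cranial mesenchyme. These groups differ in region as well as in stage, and the 2 cannot be told apart. The 6 libraries of cranial mesenchyme ran from 0.44 through a median of 0.72 to 1.16, and the 8 of the prominences from -1.42 through -0.95 to 0.59. The difference was -1.53 ± 0.42 (SE, adjusted p = 0.025), beside 3.96% of genes called, 3.26% lower at E10.5. Leaving out cranial mesenchyme replicate 2, lateral eminence replicate 2 or 4 or medial prominence replicate 1 or 2 ended the call (adjusted p = 0.056 to 0.091), and with the array percentile the difference was -0.73 (0.40). The Pbx2 call was also lost without the 11 arrays of widest spread (-1.35, adjusted p = 0.062). It was lost in the fit of these groups alone as well (-1.53, 0.079), also with the replicate number as a block (-1.52, 0.19). Meis2, called in both arch stage comparisons, differed in this comparison by -0.09 ± 0.59.

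At E8.5 the 5 genes gave 0 calls in 15 pairs, where 1.33% of gene and comparison pairs were called. The caudal neural epithelium held the highest group mean of the atlas for Meis1, with libraries at 1.13, 1.32, 1.88 and 1.87, and had Pbx3 at 1.75, 2.18, 1.29 and 0.79. Against the non-floor plate these were 0.70 ± 0.54 and 1.16 ± 0.53 higher (SE, adjusted p = 1 and 0.54), where 1.42% of genes were called. Meis2 was even in the non-floor plate, at 1.24 to 1.70 in 5 libraries, with an SD of 0.18. Floor plate Meis1 lay at -0.32 to -0.02, below all 5 non-floor plate libraries (0.06 to 1.70), a difference of -1.03 ± 0.54 that was not called (adjusted p = 1, with 0.181% of genes called and 1.94% not overlapping).

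Meis1 and Meis2 moved most alike of the 10 pairs, with r = 0.69 over the 22 group means and r = 0.61 over the libraries after group means were removed. The same libraries were high for both within groups: midline replicate 2 was at 3.15 for Meis1 and 2.30 for Meis2, and olfactory pit replicate 4 at 1.89 and 1.72. Over group means Pbx2 and Pbx3 were next with r = 0.67, and within groups Meis2 and Pbx2 with 0.48, followed by Pbx2 and Pbx3 with 0.42. Meis2 and Meis3 were least alike over group means with r = 0.25. Genes of 1 library share its array, so part of each within-group r can be common to the array. The within-group correlation with the array's 5th percentile was 0.68 for Pbx2, 0.46 for Meis2, 0.36 for Pbx3, 0.34 for Meis1 and 0.09 for Meis3.

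Over the 22 group means, the genes most like Meis2 were Fmr1 (r = 0.77), which encodes an RNA-binding protein of translation control, Ppp3r1 (0.77), the regulatory subunit of calcineurin, and Tmem131 (0.76). Those most like Meis1 were Smg6 (0.77), a nuclease of nonsense-mediated decay, Acaa2 (0.71), a thiolase of fatty acid oxidation, and Cep95 (0.71). For Meis3 they were Klra6 (0.85), Npdc1 (0.83) and the Wnt receptor gene Fzd3 (0.82). Pbx2 was closest to Ndufa10 (0.89), a subunit of respiratory complex I, Chchd3 (0.87), a protein of mitochondrial cristae, and Bcl7b (0.87). Pbx3 was closest to Shkbp1 (0.96), Vps53 (0.94), a tether of vesicle traffic, and the deubiquitinase gene Usp28 (0.93). No other member was among the 3 closest of any member.

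Other genes of the pathway were read from 3 lists, of 7 genes that are further TALE genes or, for Pbxip1, encode a Pbx interactor, 11 measured Hox genes of paralog groups 1 to 4, and 11 measured genes described as Meis or Pbx targets. In arches against cranial mesenchyme none of the 3 lists had a gene called. In E9.5 ectoderm against arches, 3 of the 7 genes of the first list were lower, beside 23.3% of all genes: Tgif1, a repressor linked to forebrain midline defects (difference -1.01 ± 0.35, SE), Pknox2, a Meis relative that also binds Pbx (-0.79 ± 0.22), and Tgif2 (-0.61 ± 0.21). The list's median was 0.02 beside -0.05 for all genes. Of the Hox genes, 5 of 11 were higher, by 0.18 to 0.44, led by Hoxb1 and Hoxa4 at 0.44, with 13.6% of all genes higher. Of the targets, 6 of 11 were higher, the largest Pax6, an eye and placode factor, at 2.52 ± 0.51 with no overlap (as for 0.943% of genes), and 1 was lower: Snai1, a factor of the epithelial to mesenchymal transition (difference -2.33 ± 0.34).

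In neuroepithelium under the prominences against the prominences, Pbx4 was the 1 gene of 7 called in the first list, 1.20 ± 0.31 higher (SE, adjusted p = 0.0041), beside 14.9% of all genes higher. Of 11 Hox genes 4 were lower, beside 5.98% of all genes: Hoxa4 (difference -0.62 ± 0.15), Hoxb1 (-0.37 ± 0.13) and Hoxd3 (-0.30 ± 0.10) led these. Among the targets Pax6 was 2.53 ± 0.52 higher, and Snai1 (-2.09 ± 0.35, no overlap) and Hoxb1 were lower. The medians were 0.29, -0.10 and -0.12 for the 3 lists and 0.05 for all genes.

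In the maxillary arch from E9.5 to E10.5, where Meis2 fell, 3 of the 7 genes of the first list fell as well, beside 6.88% of all genes lower: Pknox2 (difference -0.89 ± 0.29), Tgif2 (-0.84 ± 0.27) and Mkx (-0.71 ± 0.23; SE, adjusted p = 0.04, 0.04 and 0.042), while 2.89% of genes had no overlap. Wnt3, a midface ligand described as a Pbx target, was 0.53 ± 0.14 higher and Snai1 was lower (-2.30 ± 0.44), and no Hox gene was called. In the mandibular arch none of the 3 lists had a gene called between the stages. The maxillary values rest on the libraries whose markers go against their label.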

How the data were processed

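Per the labels' protocols, regions were laser-captured from frozen sections of CD1 embryos, and the RNA was purified and amplified (NuGEN Ovation Pico) for Affymetrix arrays of the whole-transcript type. RMA, without a version, and mm9 are named in the submitters' processing notes. The authors deposited 1 table with a linear ratio for every probe set in every sample. In it the median of 21 samples is 1 within 6e-08 for each probe set, a baseline not stated in the labels. The table holds no detection call or background, so low levels cannot be told from absence, and the planned test on log2 levels was run on log2 of the ratio. Of 35557 probe sets 28856 had values and 21789 had 1 gene symbol. For genes with several, the probe set with the highest mean was used, giving 19938 genes.

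The means of 22 groups were fitted with limma 3.58.1 in R 4.3.3 (80 residual degrees of freedom), and 29 comparisons, 3 differences of comparisons and F tests per stage were taken from that fit, with calls at p under 0.05 after Benjamini-Hochberg adjustment over all genes. The code was tested on simulated data. Means are ± SD, differences ± SE. The members, lists and tests were chosen with earlier results of these data known. Named besides the members are, by rule, the 3 genes most like each over group means and, where Meis1 or Meis2 was called, up to 3 called genes of each list by size. The rule skips small RNAs, predicted genes and genes of olfactory or vomeronasal receptors. One E9.5 sample whose labels disagree entered no comparison, and 4 E10.5 samples titled lateral were grouped as medial by tissue label. Alternatives were array weights, quantile normalization, the mean of a gene's probe sets, a trend of the variance, no arrays with an SD over 0.85, compared groups alone, the replicate number as a block, the samples of conflicting labels placed otherwise, and each library left out of groups of up to 6. The array 5th percentile as a covariate, 2 similar arrays averaged into 1, and omission of the 16 libraries against their label were added after the data were seen. Sequences are RefSeq's, matched by symbol. The number of arrays limits the precision.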

Additional observations from a re-analysis of the deposited data

Results flagged for a closer look

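Of 110 combinations of a gene and a group, 11 held a library far from the others of its group, by the gap to the nearest value over the group's range, where chance flags about 1 group in 20. For Meis1 these were cranial mesenchyme replicate 2 at E9.5 (0.93), E9.5 maxillary arch replicate 5 (2.71), E10.5 midline neuroepithelium replicate 2 (3.15), E10.5 maxillary arch epidermal ectoderm replicate 4 (1.85) and, on the low side, replicate 3 of the neuroepithelium under the medial nasal prominence (0.10). For Meis2 they were E8.5 caudal neural epithelium replicate 4 (2.02), cranial mesenchyme replicate 2 (0.86), E9.5 maxillary arch replicate 4 on the low side (1.14), lateral nasal eminence replicate 3 (-0.70) and E10.5 maxillary arch replicate 1 (1.19). For Pbx3 it was otic vesicle replicate 4 (1.32). Cranial mesenchyme replicate 2 stood apart for both Meis1 and Meis2.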

How the results depend on the processing

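The 5 largest differences, of Meis2 in arches against cranial mesenchyme, in neuroepithelium against nasal prominences and in both arch stage comparisons, and of Pbx3 in Rathke's pouch, kept their direction in every fit that gave a value. The first 2 kept their calls in all of these. The comparison of neuroepithelium against nasal prominences was not fitted with the replicate number as a block. Over all alternatives 0 of the members' calls reversed, 76 values lost a call, 30 gained one, in 15 pairs of gene and comparison and 1 difference of comparisons, and 4194 stayed on their side of the threshold.

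Calls of the 5 genes numbered 4 at E9.5, 6 at E10.5 and 3 between stages, with 5 called F tests, 0 differences of comparisons and 23049 gene and comparison pairs over all genes. With quantile normalization they were 2 at E9.5, 2 at E10.5 and unchanged between stages, with 3 F tests. With array weights they were 11 at E10.5 and 6 between stages, with 10 F tests and 38455 pairs. Calls were also gained and lost at E9.5 with array weights. With the array percentile as a covariate they were 1 at E9.5, with 2 F tests and 9412 pairs. In that fit calls were both lost and gained at E10.5, and the Pbx2 call between stages was lost. Without the 11 widest arrays there was 1 difference of comparisons and 14033 pairs. Calls were then lost at E9.5, at E10.5 and between stages, and others were gained at E10.5. In compared groups alone they were 1 at E9.5, 5 at E10.5 and 1 between stages, with 8731 pairs. Leaving out each library gave 3 to 4 at E9.5, 4 to 7 at E10.5, 2 to 4 between stages, 5 to 6 F tests, 0 to 1 differences and 20023 to 27253 pairs.

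With the replicate number as a block (replicate block) calls were 1 at E9.5, 0 at E10.5 in the 10 of 13 comparisons that were run and 0 between stages, with 1134 pairs over all genes. In those 10 comparisons the fit of all groups had 3 calls. The comparison of neuroepithelium against nasal prominences, with the other E10.5 calls, was not among them. Same-numbered libraries of different groups did not deviate together on average (mean r -0.009 over 871 pairs, 0.002 for different numbers). This average cannot show whether particular groups share embryos, which the labels do not give. Where calls ended, the cause was not tested.

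When left out, lateral nasal eminence replicates 1, 2 and 4, medial nasal prominence replicates 1 and 2, and replicate 3 of the neuroepithelium under the lateral and 2 of that under the medial prominence ended the calls of both Pbx2 and Pbx3 between neuroepithelium and prominences. Lateral replicate 1 and medial replicate 1 of the neuroepithelium also ended that of Pbx2, and medial prominence replicate 3 and neuroepithelium replicates 4 of both sides that of Pbx3. For Rathke's pouch, midline replicates 1 and 2 and pouch replicates 1, 2 and 4 ended the calls of Meis3 and Pbx2, midline replicate 4 that of Meis3 and pouch replicate 5 that of Pbx2.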

Other observations

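The E9.5 sample whose title says mandibular arch and whose tissue label says epidermal ectoderm had log2 ratios of 2.09 for Meis2, 1.12 for Pbx3, 0.88 for Pbx2, 0.27 for Meis1 and -0.19 for Meis3.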
